A study of Mus musculus with 6 samples.

Results

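The cytosolic ribosomal protein genes were examined in T helper 2 (Th2) cells with and without Ikzf4, which encodes Eos, a zinc finger transcription factor related to Ikaros. They were taken as the rows of the deposited table whose symbol is Rpl, Rps or Rplp followed by the protein's number and any letter of a variant. Kinases named Rps6k and rows named as pseudogenes with the ending -ps were left out. The rule found 85 genes of the 14868 in the table, 51 of the large subunit and 34 of the small one. The GENCODE M21 annotation lists 80 of them as protein coding and the other 5 (Rpl6l, Rpl32l, Rps3a2, Rps3a3 and Rps4l) as processed pseudogenes. All 85 passed the filter on low values.

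The starting cells were naïve CD4+ T cells, the helper T cells of an animal before contact with antigen. They came from wild-type (WT) mice and Ikzf4-/- mice, both on the C57BL/6J background. Both genotypes were kept for 72 h on plate-bound antibodies to CD3 (5 µg/mL) and to CD28 (2 µg/mL), which trigger the T cell receptor and the co-receptor CD28. The medium of both also contained 10 ng/mL interleukin-4 and 10 µg/mL of an antibody to interferon gamma, the usual way to drive Th2 differentiation. Total RNA was sequenced from the cells after these 72 h. There were 3 libraries for each genotype and no other group. The labels give neither the mice's age nor whether the replicates came from separate mice or cultures, so the p-values measure the spread between these libraries, which may be technical.

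A ribosome consists of a large and a small subunit, each built from ribosomal RNA and a fixed set of proteins that are needed in equal amounts. Their messengers usually begin with a run of pyrimidines, the 5' terminal oligopyrimidine (TOP) motif, through which the kinase mTOR and the RNA-binding protein Larp1 control their translation together. Naïve T cells make few ribosomes, and activation through the T cell receptor raises ribosome production before the cells divide.

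The label check came first. Ikzf4 had normalized read counts of 756, 499.6 and 483 in WT and of 25.2, 10.5 and 38.2 in Ikzf4-/- (log2 fold change -4.64, limma adjusted p = 0.000389). Library depth, as implied by the values, ran from 34701390 to 40604346 reads. Of the markers of CD4 T cells, all 10 were measured, and their summed value was 131776 to 136706 in WT and 135659 to 139916 in Ikzf4-/-. Cd5, an inhibitory co-receptor of T cells, rose among them (log2 fold change 0.33, limma adjusted p = 0.0306). All 4 Th2 markers had negative log2 fold changes. Only the cytokine genes Il4 (-0.87, limma adjusted p = 0.0144) and Il13 (-0.82, limma adjusted p = 0.0450) had an adjusted p under 0.05. The CD8 markers summed to 236 to 423 in WT and 232 to 374 in Ikzf4-/-, and the B cell genes Cd79a and Cd79b to 51.1 to 83.6 and 58.6 to 90.4. The myeloid and NK cell markers, and the globin genes among the erythroid ones, were not analysed here. Alas2, the other erythroid marker, was between 2.13 and 18.4. The part of these other cells in the results was not tested. In such bulk samples, fewer cells of a type and less RNA per cell cannot be told apart.

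Summed, the ribosomal protein genes did not differ between genotypes by more than the spread between libraries. They took 7.13%, 6.89% and 7.42% of the normalized reads of the WT libraries and 7.31%, 7.28% and 6.96% of those of the Ikzf4-/- libraries. The ranges of the genotypes overlapped, with means of 7.15% ± 0.266 and 7.18% ± 0.196 (SD, n = 3 each). Large subunit genes took 4.37% ± 0.157 in WT and 4.38% ± 0.115 in Ikzf4-/-, and small subunit genes 2.78% ± 0.110 and 2.81% ± 0.0804 (SD, n = 3 each). The summed large subunit values were 1.571, 1.579 and 1.568 times the summed small subunit values in WT and 1.557, 1.557 and 1.563 times in Ikzf4-/-. The WT ratios were all above those of Ikzf4-/-, by 0.0137 on average (exact two-sided permutation p = 0.1 where no values overlap, the smallest that 3 against 3 libraries allow).

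The median log2 fold change (Ikzf4-/- over WT) was -0.0045 over the 85 genes, against 0.0048 over all 14864 genes tested. There were 41 genes with a positive and 44 with a negative value. The median was -0.0075 over the 51 large subunit genes and 0.0077 over the 34 small subunit genes. Over the protein coding genes alone it was -0.0075 for the large and -0.0033 for the small subunit. These medians were near 0, and their sign depended on the scaling of the libraries (0.035 over all 85 genes with quantile scaling).

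Called genes, those with an adjusted p under 0.05 in limma's trend fit after Benjamini-Hochberg adjustment over all genes tested, numbered 2 of 85. That is 2.35%, beside 1.77% of all genes tested. Rpl39l was the 1 called higher (1.18% of the set against 0.572% of all genes) and Rpl34 the 1 called lower (1.18% against 1.2%). Both are large subunit genes. Without adjustment, 11 of the 85 genes (12.9%) had a p under 0.05, beside 18.1% of all genes. For 7 genes (8.24%) no Ikzf4-/- value lay within the WT range or across it, beside 23.1% of all genes. Genes lower in every Ikzf4-/- library than in any WT library, among them Rpl18, Rpl27, Rpl34, Rps7 and Rps14, numbered 6 of 85 (where 12.2% of all genes were), and Rpl39l was higher (1 of 85, where 11.0% of all genes were).

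**Figure D1:**
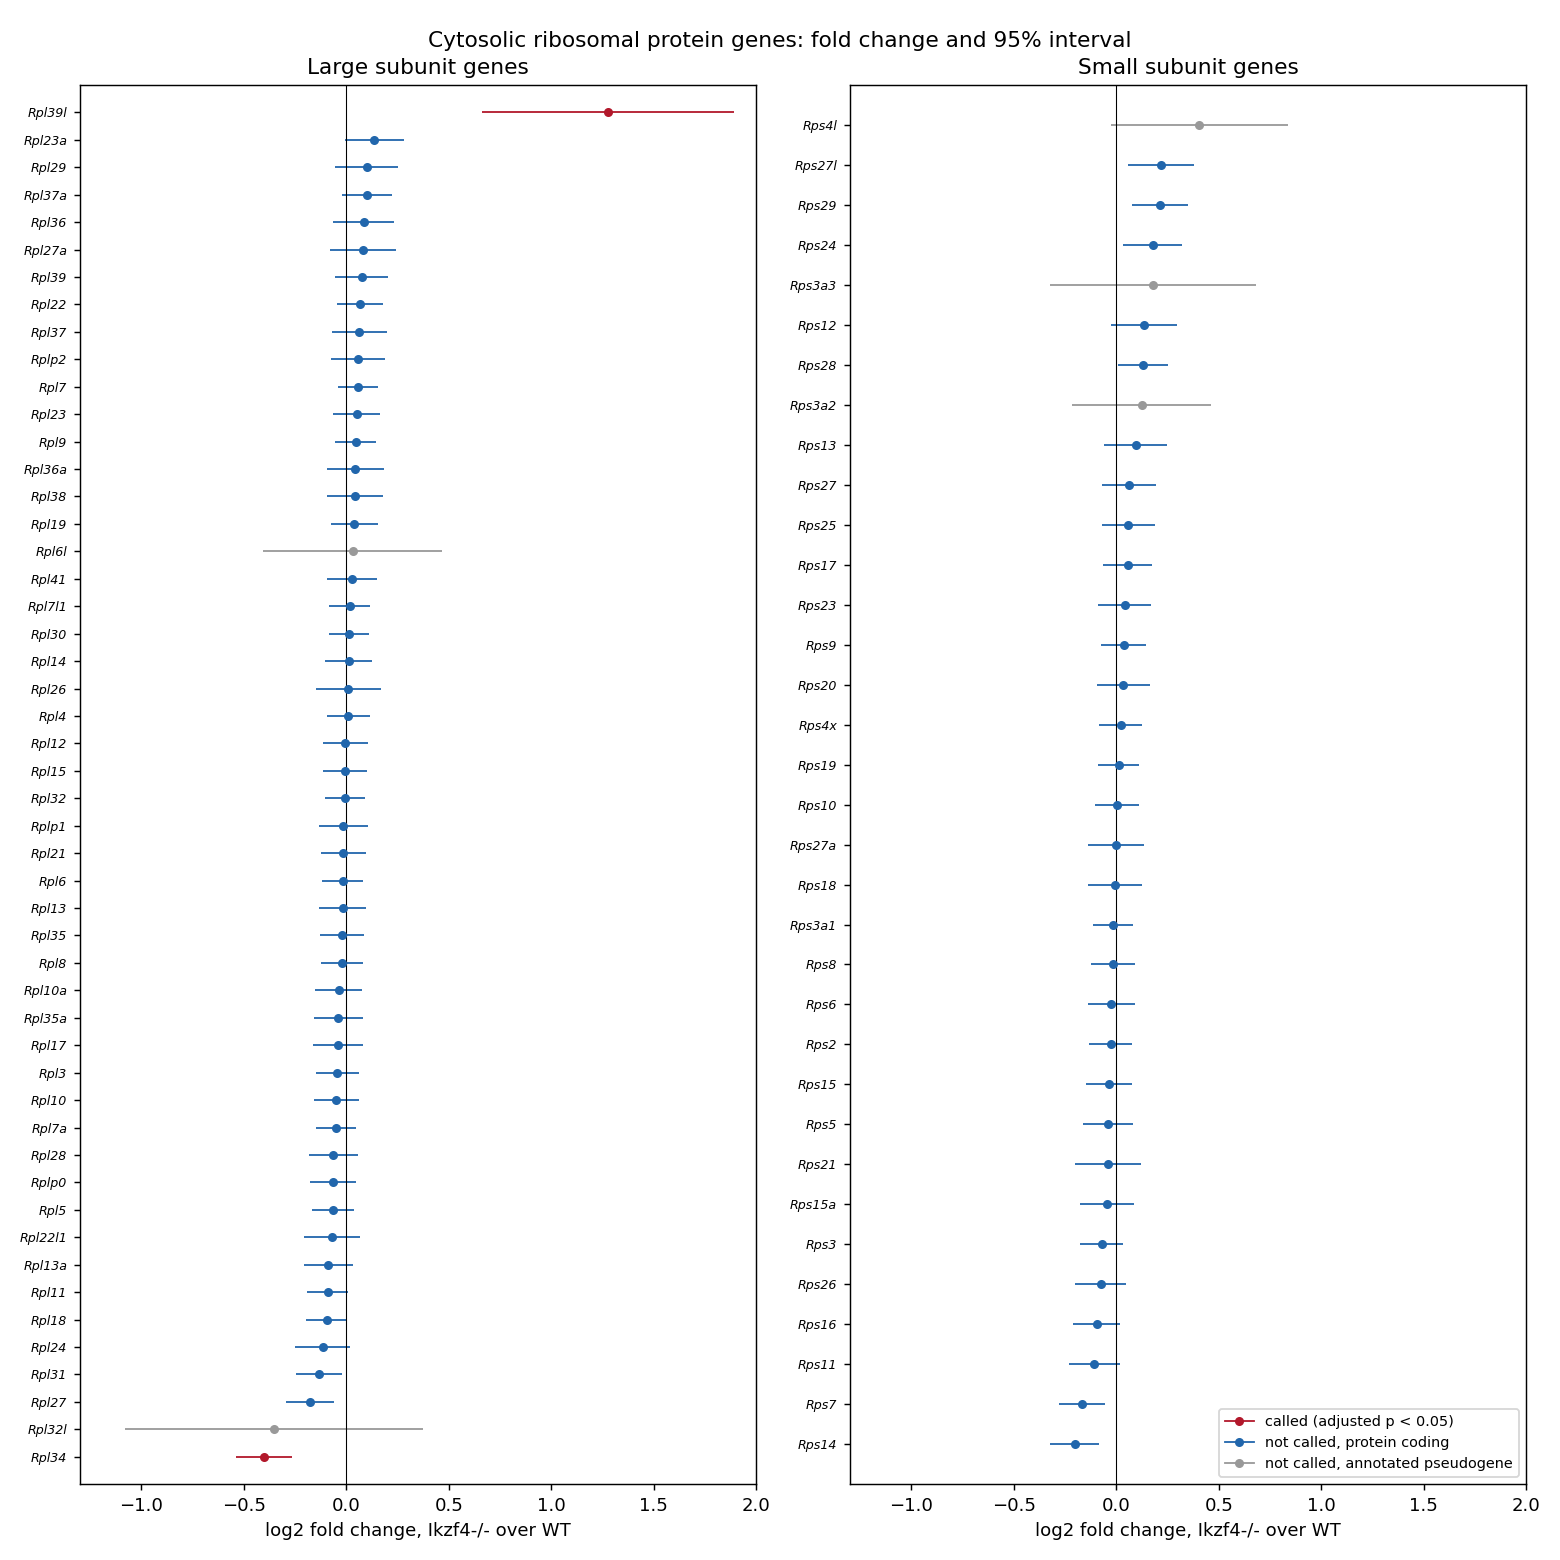
Each point is the fitted log2 fold change (Ikzf4-/- over WT) of 1 gene on the horizontal axis and the bar its 95% interval, for 50 of the 51 large subunit genes at left (1 is not reported by name and not drawn) and the 34 small subunit genes at right, ordered by value. Most points lie within a narrow band about 0, Rpl34 lies below it at -0.40 and Rpl39l far above it at 1.28, and the annotated pseudogenes have the wide intervals of genes with few reads.

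How small a change could have gone unseen is given by the intervals. The 95% interval of the change lay within a 1.2-fold change either way for 69 of the 85 genes (81.2%), against 37.7% of all genes tested. Rps2, Rpl3 and Rps6 were among these. The 16 others included the 5 pseudogenes, Rpl34, Rpl39l, Rpl23a, Rpl27, Rps7, Rps12, Rps14, Rps24, Rps27l and Rps29. Genes with few reads have wider intervals, and the share over all genes takes in genes down to a mean of 10. The shares were not compared at like levels.

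Leaving out the pseudogenes and the paralogs Rpl7l1, Rpl22l1, Rpl39l and Rps27l gave 76 protein coding genes, all with a mean normalized count of at least 5416. Their median absolute log2 fold change was 0.047, against 0.070 in the 1430 other genes with a mean at least that high. Of the 76, 1.32% were called, against 4.69% of those 1430. Their SD within a genotype had a median of 0.0723 on the log2 scale, against 0.0566 in the others. Fold changes of the 76 ran from -0.40 (Rpl34) to 0.21 (Rps29), and the lowest without Rpl34 was -0.20 (Rps14). The median half-width of their 95% intervals was 0.117.

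**Figure D2:**
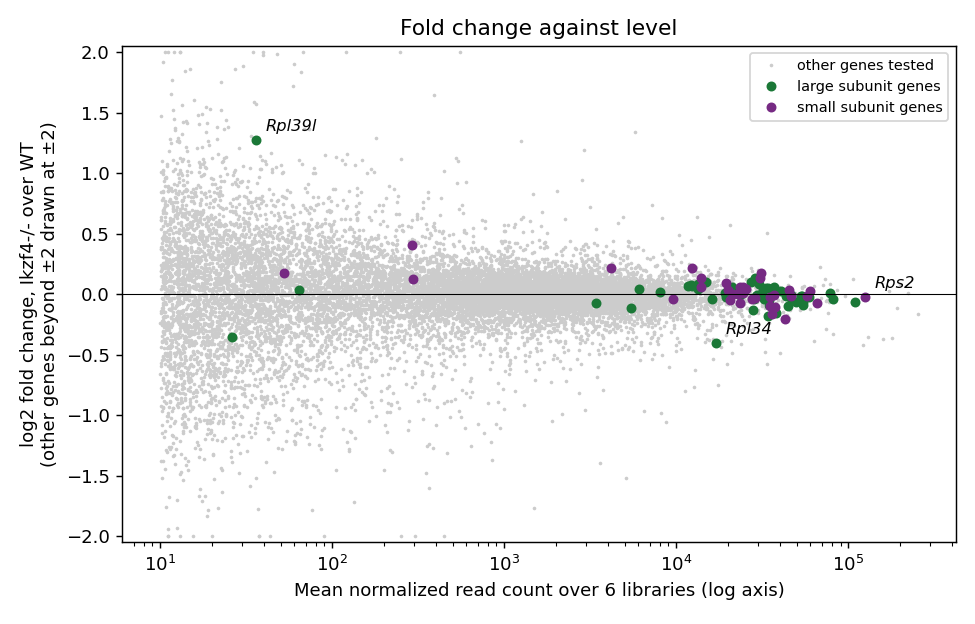
Each point is 1 gene, with its mean normalized read count over the 6 libraries on a logarithmic horizontal axis and its fitted log2 fold change on the vertical axis, large subunit genes in green, small subunit genes in purple and other genes tested in grey. Most ribosomal protein genes gather at the right, about a change of 0, with Rpl34 below them, and Rpl39l stands apart at a mean of 36.1.

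Rpl34 encodes a protein of the large subunit and was the ribosomal protein gene that departed most from the others at a high level. The gene (ENSMUSG00000062006) lies on the minus strand at chr3:130726831-130730398 of GRCm38. Its normalized counts were 19494, 18253 and 20580 for WT and 16027, 14203 and 13983 for Ikzf4-/-. All 3 Ikzf4-/- values were below the lowest WT value. The mean was 19442 ± 1164 for WT and 14738 ± 1122 for Ikzf4-/- (SD, n = 3 each). Rpl34 thus fell by 0.40 on the log2 scale (SE 0.062, 95% interval -0.54 to -0.26, limma adjusted p = 0.0191), to 0.76 of the WT level. Leaving out Ikzf4-/- replicate 2 or 3 gave adjusted p-values of 0.0590 and 0.0859 by limma, and the gene stayed called in the other 4 fits that left out a library.

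A near-identical copy of Rpl34 moved the other way. Rpl34-ps1 (ENSMUSG00000068396) is a processed pseudogene, an intronless copy made from a messenger, at chr6:71124610-71124963 on the plus strand of GRCm38. Its normalized counts were 40.5, 30.6 and 48.5 in WT and 796, 1249 and 1172 in Ikzf4-/-. The Ikzf4-/- values were all far above the WT ones (log2 fold change 4.71, SE 0.206, limma adjusted p = 1.34e-06).

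The coding sequence of Rpl34 and its match in Rpl34-ps1 differ at 2 of 354 bases, an identity of 99.44%. With positions counted from 1 at the A of the start codon and the Rpl34 base first, the differences are T132C and C318G. The stretches of 41 bases around each are shown because only reads that cross them can tell the copies apart within the coding sequence, with the base that differs in capitals, each 5′ to 3′ on the gene's own strand. Position 132 lies in exon 3 of Rpl34 (chr3:130729064-130729104) and at chr6:71124721-71124761 in the pseudogene. Position 318 lies in exon 5 (chr3:130726891-130726931) and at chr6:71124907-71124947 in the pseudogene, all on GRCm38.
Rpl34, position 132: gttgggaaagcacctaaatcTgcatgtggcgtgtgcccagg
Rpl34-ps1, position 132: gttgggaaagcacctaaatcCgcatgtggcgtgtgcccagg
Rpl34, position 318: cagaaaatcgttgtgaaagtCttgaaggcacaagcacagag
Rpl34-ps1, position 318: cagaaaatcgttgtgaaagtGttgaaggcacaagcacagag

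Of the 50-base runs in the Rpl34 transcript, 50.6% also occur in the pseudogene. How reads that match both were counted is not given in the sources used here, so the split between their rows is uncertain. Between genotypes the Rpl34 mean differed by -4704 normalized counts and the Rpl34-ps1 mean by 1033. Their sum was 19534, 18283 and 20628 in WT and 16822, 15452 and 15156 in Ikzf4-/-. The sums still did not overlap, and the summed value fell by 0.30 on the log2 scale (SE 0.057, 95% interval -0.43 to -0.18, limma adjusted p = 0.0316), to 0.81 of the WT level. The other rows that share at least 10% of these runs with Rpl34, the processed pseudogenes Gm4705 and Gm10086, had 6.39 to 37.2 normalized counts in any library and were not called. Adding them as well left the log2 fold change at -0.30 (limma adjusted p = 0.0318), an alternative chosen after seeing the data.

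**Figure D3:**
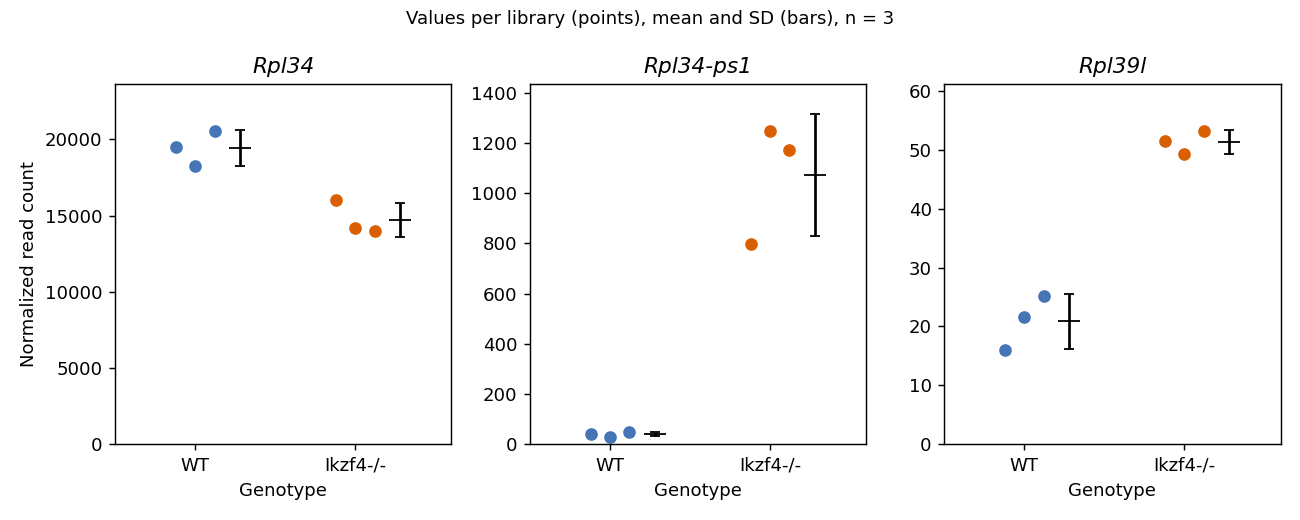
Points give the normalized read count of each library for Rpl34, Rpl34-ps1 and Rpl39l by genotype, each panel with its own vertical axis from 0, and the bars beside them the mean and SD (n = 3). The genotypes do not overlap in any of the 3 panels, Rpl34 being lower and the others higher in Ikzf4-/-.

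None of the table's copies of other ribosomal protein genes was called. Of the 80 protein coding genes, 78 share at least 1 run of 50 bases with another annotated gene and 47 share at least 50% of their runs, with a median of 55.5%. In the table, 153 other rows share at least 10% of the runs of a ribosomal protein gene, and these are copies of 72 of the 85. Rpl34-ps1 was the only 1 of the 153 called (0.654%, beside 1.77% of all genes tested). The median log2 fold change over the 153 was 0.02. Without overlap between genotypes, 13 of the 153 were higher, Rpl34-ps1 among them, and 7 lower. Of all genes, 11.0% were likewise higher and 12.2% lower. The rows named as -ps copies of these genes numbered 65, of which 1, again Rpl34-ps1, was called. Across the 80 genes, the fold change had a Spearman correlation of -0.018 with the share of a gene's runs found elsewhere. Genes are not independent replicates.

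Rpl39l is a paralog of Rpl39, known from the ribosomes of male germ cells, and its protein lines the same exit tunnel. The gene (ENSMUSG00000039209) lies at chr16:10170226-10174911 on the plus strand of GRCm38 and shares no 50-base run with another annotated gene. It was scarce in all libraries, with normalized counts of 16.0, 21.6 and 25.2 in WT and 51.4, 49.2 and 53.2 in Ikzf4-/-. The lowest Ikzf4-/- value was well above the highest WT value. Its mean rose from 20.9 ± 4.67 to 51.3 ± 2.02 (SD, n = 3 each), or by 1.28 on the log2 scale (SE 0.278, 95% interval 0.66 to 1.89, limma adjusted p = 0.0480) and 2.42-fold. This call was at the edge of the threshold. Limma's adjusted p was 0.0505 with a pseudocount of 0.1, 0.0630 after a correction for GC content and length, and between 0.0901 and 0.162 when any 1 library other than WT replicate 3 was left out.

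Rpl39l made a small fraction of the Rpl39 level. Per base of transcript it was 0.151%, 0.215% and 0.222% of Rpl39 in WT and 0.451%, 0.419% and 0.507% in Ikzf4-/-. The Ikzf4-/- shares were all above the WT shares (0.459% ± 0.0445 against 0.196% ± 0.0389, SD, n = 3 each; exact two-sided permutation p = 0.1, the smallest that 3 against 3 libraries allow, 0.3 adjusted over 6 such ratios). The log2 fold change of Rpl39 itself was 0.07 (limma adjusted p = 0.547).

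For 4 of the 5 other pairs, the values overlapped between genotypes. Per base of transcript, Rpl22l1 was at 25.1% ± 1.61 of Rpl22 in WT and 22.9% ± 1.91 in Ikzf4-/- (exact permutation p = 0.3, 0.36 adjusted). Rpl22 is a protein that developing T cells need. Rpl7l1 was at 19.6% ± 0.454 of Rpl7 in WT and 19.1% ± 0.805 in Ikzf4-/- (SD, n = 3 each). Rps27l, a target of p53, was at 19.5% ± 1.57 of Rps27 in WT and 21.8% ± 2.53 in Ikzf4-/- (SD, n = 3 each). The pseudogene Rps4l was at 0.534% ± 0.185 and 0.671% ± 0.0376 of Rps4x. Rpl36al, a copy of Rpl36a that the symbol rule does not include, was at 85.4%, 78.6% and 74.0% of it in WT and 70.8%, 71.5% and 71.7% in Ikzf4-/-. Here the groups did not overlap (exact permutation p = 0.1, 0.3 adjusted). The partners Rpl3 (-0.04), Rpl7 (0.06), Rpl10 (-0.05), Rpl22 (0.06), Rps4x (0.02) and Rps27 (0.06) had small log2 fold changes, none called. The muscle and testis paralogs Rpl3l and Rpl10l were not analysed here.

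Of the P stalk proteins, Rpl5, Rpl11, Rpl4, Rps6, Rps2, Rps3 and Rps19, taken for their known roles, none was called. Over all genes tested, 1.77% were called. The P stalk is the flexible arm of the large subunit that recruits the translation factors. Its base Rplp0 had normalized counts of 109612, 107142 and 118044 in WT and 105410, 108868 and 105570 in Ikzf4-/- (log2 fold change -0.06). Rplp1 and Rplp2, which form the arm, had -0.01 and 0.06, and the values of all 3 genes overlapped between genotypes.

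Rpl5 and Rpl11 bind 5S ribosomal RNA and, outside the ribosome, inhibit Mdm2, the ligase that marks p53 for destruction. Rpl5 was at 50988, 48338 and 52669 in WT and 48667, 48972 and 47527 in Ikzf4-/- (log2 fold change -0.07, limma adjusted p = 0.499). Rpl11 was at 36467, 34042 and 36629 in WT and 33453, 34388 and 32691 in Ikzf4-/- (-0.09, 0.326). In both genes WT replicate 2 lay within the range of the Ikzf4-/- libraries.

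Rpl4, whose loop reaches into the exit tunnel through which new proteins leave, had a log2 fold change of 0.01. Rps6, the substrate of S6 kinase downstream of mTOR, had -0.02. Rps2 and Rps3 lie at the site where messengers enter. Rps2, the ribosomal protein gene with the highest mean, was at 124212, 123642 and 132458 in WT and 123442, 125386 and 124196 in Ikzf4-/-, so the Ikzf4-/- values lay below or within the WT range. The log2 fold change was -0.03 for Rps2 and -0.07 for Rps3. Rps19, the protein most often affected in Diamond-Blackfan anaemia, had 0.01. Limma's adjusted p was 0.478 or higher for each of these.

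Levels can be compared between genes per kilobase of transcript. On that scale the highest means over the 6 libraries were Rps2 with 125808, Rplp1 with 108105, Rpl41 with 92441 and Rplp0 with 80344 normalized counts per kilobase. The lowest protein coding genes were Rpl39l with 65.7, Rps20 with 5391, Rpl7l1 with 6114, Rpl22l1 with 6187, Rpl24 with 8000 and Rps27l with 8315. The counts per kilobase thus spanned a wide range also without the paralogs. How reads with several matches were counted is not given, so these counts need not follow the levels of the messengers. The Rps20 value was computed on an annotated transcript of 3706 bases, where the median over the genes was 680.5 bases, and no other transcript was tried.

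The other genes at the edges of the range were near the threshold in some fits. Rps14, a small subunit protein encoded at chr18:60747098-60778546 of GRCm38, was at 47478, 42627 and 47464 in WT and 38042, 40750 and 40618 in Ikzf4-/-. Its groups did not overlap, and its log2 fold change was -0.20 (SE 0.054, limma adjusted p = 0.0853). Rpl27 was at 38581, 33827 and 35778 in WT and 31570, 32816 and 31191 in Ikzf4-/- (-0.18, limma adjusted p = 0.114). Its groups were apart by a narrow gap.

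Rps7, a small subunit protein that also binds Mdm2, gave -0.17 (limma adjusted p = 0.121), with counts of 40051, 35617 and 37871 in WT and 34010, 34464 and 32586 in Ikzf4-/-. Its groups were apart as well. In Rps14, Rpl27 and Rps7 alike, WT replicate 2 was the lowest WT library. Rpl18, chosen after its values were seen because its groups did not overlap, had -0.10 (limma adjusted p = 0.302).

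At the upper edge, Rps29, a small zinc-binding protein of the small subunit, was at 10840, 11008 and 12466 in WT and 13541, 13771 and 12406 in Ikzf4-/- (log2 fold change 0.21, limma adjusted p = 0.105). Rps27l was at 3549, 3644 and 4336 in WT and 4515, 4234 and 4616 in Ikzf4-/- (0.22, limma adjusted p = 0.150). Rps24 was at 27736, 27235 and 32103 in WT and 34105, 33199 and 31034 in Ikzf4-/- (0.18, limma adjusted p = 0.177). In all 3 genes WT replicate 3 lay above the other WT libraries and within the Ikzf4-/- range.

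Without WT replicate 3, Rps29, Rps27l and Rps24 were called higher as well (limma adjusted p = 0.0275, 0.0223 and 0.0315), which made 5 of 85 (5.88%), beside 3.52% of all genes in that fit. The pseudogenes Rps4l (0.41), Rps3a3 (0.18) and Rpl32l (-0.35) also ranked among the 6 highest or lowest log2 fold changes, at means of 290.4, 52.6 and 26.1 normalized counts. Their values overlapped between genotypes.

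In the authors' deposited table, 7 of the 85 genes had an adjusted p under 0.05 (8.24%), beside 6.34% of the 12849 genes with such a value. They included Rpl34 with a log2 fold change of -0.40 (adjusted p = 4.81e-07 in the authors' deposited table), Rps14 (0.0121), Rpl39l (0.0203), Rps29 (0.0292), Rpl27 (0.0359) and Rps7 (0.0450). In the authors' deposited table, Rpl39l and Rps29 were higher in Ikzf4-/- and 5 genes lower.

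Most ribosomal protein genes moved together between libraries of the same genotype. WT replicate 2 was the lowest of the WT libraries for 76 of the 85 genes (89.4%), where it was the lowest for 29.8% of all genes. Ikzf4-/- replicate 3 was the lowest of its genotype for 70 of 85 (82.4%, against 34.1% of all genes), and WT replicate 3 the highest of its genotype for 58 (68.2%, against 32.9%). The median deviation of the genes from their own means, on the log2 scale, was 0.0081, -0.067 and 0.060 for WT and 0.036, 0.024 and -0.062 for Ikzf4-/-. The SD of this median between libraries of a genotype was 0.059, larger than the median difference between genotypes. These 2 low libraries, WT replicate 2 and Ikzf4-/- replicate 3, were also the most deeply sequenced of their genotypes. WT replicates 1, 2 and 3 had 35108924, 40604346 and 37887751 implied reads. Ikzf4-/- replicates 1, 2 and 3 had 35801763, 34701390 and 35937985, a narrow margin. The share of mitochondrially encoded reads was 1.31% to 1.51% over the 6 libraries. The part of depth or RNA quality in these shared shifts was not tested.

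**Figure D4:**
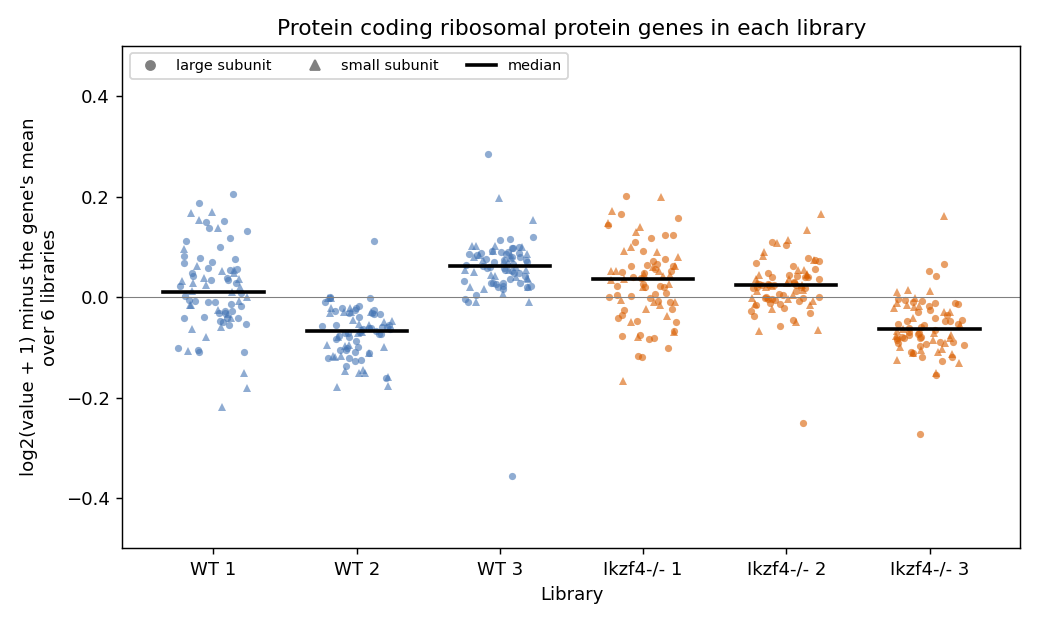
Each point is 1 protein coding ribosomal protein gene in 1 library, given on the vertical axis as the difference of its log2(value + 1) from its own mean over the 6 libraries, with circles for the large and triangles for the small subunit and a bar for the median. Whole clouds are shifted down in WT replicate 2 and Ikzf4-/- replicate 3 and up in WT replicate 3, and Rpl39l lies off the axis (beyond 0.5 either way) in all libraries but WT replicate 3.

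Fold changes also varied with base composition. Across the 80 protein coding genes, the log2 fold change had a Spearman correlation of -0.247 (Pearson -0.201) with the GC content of the transcript and of -0.283 with its length. Across all genes tested the Spearman correlation was -0.196 with GC content and 0.0091 with length. Across the 1430 other genes with a mean at least as high as the 76 above it was -0.227 with GC content and 0.219 with length, the latter of opposite sign to that of the ribosomal protein genes. The 20 genes lowest in GC content (40.6% to 48.3%) had a median change of 0.042, with 14 of 20 positive, and the 20 highest (54.6% to 60.8%) had -0.015, with 9 positive. With each library's trend over all genes removed, these medians were -0.029 and 0.016 and the correlation with GC content 0.203. The sign of the relation turned with the correction, while Rpl34 remained called, at -0.47. These correlations share the same 6 libraries, and genes are not independent replicates.

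**Figure D5:**
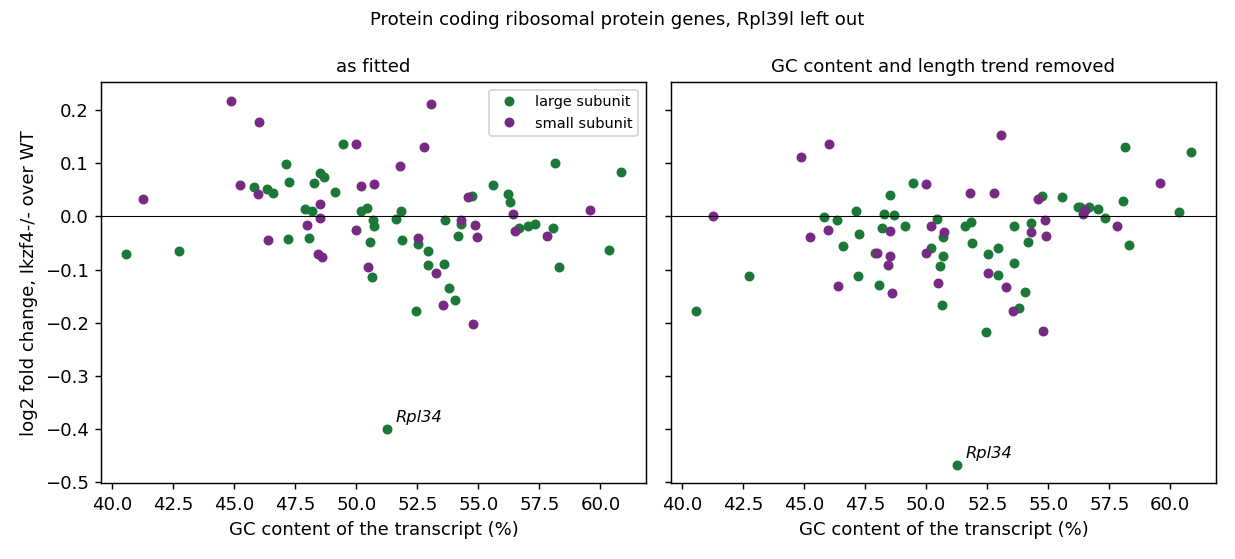
Each point is 1 protein coding ribosomal protein gene, Rpl39l left out, with the GC content of its transcript on the horizontal axis and its log2 fold change on the vertical axis, as fitted at left and after removal of the trend with GC content and length from every library at right. The slight downward slope at left turns into a slight upward one at right (Spearman correlation -0.247 and 0.203 over all 80 genes). Rpl34 is the lowest point in both.

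The genes are spread over 19 chromosomes. Chromosome 7 holds 14 of the 80 protein coding genes, more than any other. Rps26 lies 4095 bases from Ikzf4 on chromosome 10 and Rpl41 81537 bases from it. Their log2 fold changes were -0.08 and 0.03, and neither was called (limma adjusted p = 0.526 and 0.845).

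The start regions of the genes share sequence features that the choice of genes did not use. Of the protein coding genes, 60 had a window around the transcript start in RefSeq (GRCm38.p6). A C followed by at least 7 further pyrimidines on the sense strand, within 50 bases either side of the start, was found in 49 of them (81.7%). The same was found in 28.7% of all 27025 windows and 27.3% of those of table genes. The letters CGGAAG, searched on both strands of the 300-base window, were found in 41 (68.3%), against 17.2% of all windows and 32.2% of those of table genes. The letters TGGGAA, searched likewise, were found in 15 (25.0%), against 25.5% and 22.7%. The tract overlapped a CGGAAG match in 3 genes and a TGGGAA match in 2.

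Start regions are shown for the called genes Rpl34 and Rpl39l and, beside them, for Rps6, Rplp2, Rps24 and Rpl27, which were not called. Each is a stretch of 30 bases, 5′ to 3′ on the gene's strand, with the pyrimidine tract in capitals. Both called genes hold such a tract near the start, as do those that were not called. Counted from the RefSeq start, it began at base -13 in Rpl34, -26 in Rpl39l and -42 in Rpl27. In these genes it ended before the start, so it lies outside the annotated messenger and is no TOP motif of it. In Rps6, Rplp2 and Rps24 it began at -1, -4 and -2 and ran across the start. A match is a description of the letters and not a site. The stretches lie at chr3:130730393-130730422 (minus), chr16:10170191-10170220 (plus), chr4:86857349-86857378 (minus), chr7:141447636-141447665 (plus), chr14:24490665-24490694 (plus) and chr11:101442193-101442222 (plus) of GRCm38.p6, in the order given.
Rpl34: ctgacgcgccgCCTTCCCTgacgtacttcc
Rpl39l: aacacccactgCCTCTCCCTagctcccagg
Rps6: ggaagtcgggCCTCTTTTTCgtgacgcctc
Rplp2: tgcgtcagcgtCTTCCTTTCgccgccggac
Rps24: cgcgctggggtCCTTCCTTgcgcgttgata
Rpl27: gtcatcctcgCTCCTCCCTCCacacgccgg

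Of ribosomal proteins encoded under other symbols, the 4 given here had negative log2 fold changes. None was called by limma (1.77% of all genes tested were). An unadjusted p under 0.05 was found for 1 of them, Fau (18.1% of all genes). Rpsa and Rack1 of the small subunit had -0.06 each and Rpl36al -0.11. Fau, a ubiquitin-like protein fused to a small subunit protein, was at 26775, 23294 and 24967 in WT and 22478, 22932 and 21490 in Ikzf4-/- (-0.16, limma adjusted p = 0.147). The Ikzf4-/- values of Fau were below all WT values.

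Of 25 symbols listed for other messengers known to begin with a TOP motif, mostly translation factors, 24 were present under that symbol and tested. None of the 24 was called by limma, beside 1.77% of all genes tested. An unadjusted p under 0.05 was found for 2, beside 18.1% of all genes. The median log2 fold change of the 24 was 0.02, and their range was -0.16 (Eef1a1, the main elongation factor) to 0.09 (Cct4, a chaperonin subunit). Of 18 symbols listed as chaperones and loading factors of ribosomal proteins or subunits, 16 were present under that symbol and tested. None of the 16 was called and 2 had an unadjusted p under 0.05, beside the same 1.77% and 18.1% of all genes. The median log2 fold change of the 16 was -0.02.

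Of 16 regulators of ribosomal protein messengers, 1 was called lower and none higher, beside 1.2% and 0.572% of all genes tested, with a median log2 fold change of 0.01. Eif4ebp1, a repressor of cap-dependent translation that mTOR switches off, was at 2014, 1598 and 1652 in WT and 1218, 1403 and 1223 in Ikzf4-/-. The groups did not overlap, and the mean, 1755 ± 226 in WT and 1281 ± 106 in Ikzf4-/- (SD, n = 3 each), fell by 0.45 on the log2 scale (limma adjusted p = 0.0436). Limma's adjusted p was between 0.0581 and 0.156 without WT replicate 2 or any 1 of the Ikzf4-/- libraries. Mtor itself had -0.03, Rps6kb1, an S6 kinase gene, 0.02 and Larp1 -0.13, none called.

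Of the 4 genes of the p53 loop that ribosomal proteins feed into, none was called by limma and 3 had an unadjusted p under 0.05, with a median log2 fold change of 0.22 (18.1% of all genes tested had such a p). Cdkn1a, a p53 target that halts the cell cycle, was at 2180, 2686 and 3608 in WT and 3611, 4063 and 4419 in Ikzf4-/- (0.54, limma adjusted p = 0.0862). Mdm4, a partner of Mdm2, was at 4803, 4697 and 4874 in WT and 5885, 5148 and 6076 in Ikzf4-/- (0.25, limma adjusted p = 0.0702). Mdm2 had 0.18 (limma adjusted p = 0.171) and Trp53, the gene of p53, 0.01. The Ikzf4-/- values of Cdkn1a, Mdm4 and Mdm2 were above all WT values, for Cdkn1a by a very small margin over WT replicate 3, where 11.0% of all genes were likewise apart and higher.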

How the data were processed

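The 6 libraries of Th2-polarised CD4+ T cells come as 1 deposited table. In its sample columns the authors deposited a never-negative signal, already normalized between libraries, read as normalized read counts because 100% of the values in each library are whole multiples (within 0.01) of 1 step per library. The submitters' processing notes name Trimmomatic 0.36, STAR 2.5.2b, DESeq2 and the builds GRCm38 and mm10, with no roles. The counter, its annotation and its use of strand and of reads with several matches are not given in the sources used here. The authors' log2 fold changes, p-values and adjusted p-values are in the same deposited table. No count test was run. The steps of Ikzf4-/- replicates 1 and 3, 1.009 and 1.005, were too near 1 for the check used to accept the columns as recovered reads. Depths are those that the steps imply.

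The fit used log2(value + 1), which understates the change of low genes. Genes with a mean of at least 10 were kept (14864), and genotype was the only term in limma 3.58.1, run under R 4.3.3 (trend of variance with mean, two-sided, Benjamini-Hochberg over all genes). The procedure was tested on simulated data. Intervals are at 95%. The depth of 34701390 to 40604346 implied reads leaves counting error small beside the spread between libraries, except for genes such as Rpl39l. Libraries of a genotype had a Spearman correlation of 0.992 to 0.995 over all genes and differed beyond counting noise, so none was a duplicate of another.

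Symbols of all 85 genes match GENCODE M21, from which positions, GC content, lengths (of the shortest principal protein coding transcript) and shared 50-base runs were taken. The members and lists were chosen with earlier results of these data known. Genes were named by a rule: those called, the 6 highest and 6 lowest fold changes, the 3 highest and 3 lowest means, and members fixed by role or as paralog pairs, with the called genes of the lists. Other named genes were chosen after their values were seen. Values of some genes that the rule names are not reported here, though counts and medians include them. Replicate numbers were not taken to pair libraries, since the correlations of same-numbered deviations were 0.145, 0.0122 and 0.142 over all genes. Numbers 1 and 3 nevertheless correlated best with their own number, and a fit with the number as a block is given below. Alternatives covered scaling, filters, pseudocounts, the block, left-out libraries, array weights, GC content and length (splines with 5 degrees of freedom), a threshold of 0.01, the authors' calls and summed copies. Summing all sharing rows and keeping protein coding genes only were added after seeing the data.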

Additional observations from a re-analysis of the deposited data

How the results depend on the processing

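Rpl34 was lower and Rpl39l higher in Ikzf4-/- under every alternative run. The count of 2 ribosomal protein genes called became 1 (Rpl34) with a pseudocount of 0.1, with the GC content and length correction, and with Rpl39l and the other paralogs left out and ribosomal proteins of other symbols added. It became 0 at an adjusted p under 0.01 and 7 in the authors' deposited table. Leaving out 1 library gave 0 to 5 (0 without Ikzf4-/- replicate 2 or 3, 1 without WT replicate 1 or 2 or Ikzf4-/- replicate 1, 5 without WT replicate 3). Over all genes, the 263 calls became 754 with the replicate number as a block, 482 with array weights, 175 with the GC content and length correction, 16 at an adjusted p under 0.01, 815 in the authors' deposited table and 20 to 523 when 1 library was left out. The block left the count of ribosomal protein genes called at 2. By pairing of same-numbered libraries, the numbers 1 and 3 but not 2 correlated best with their own number. The median log2 fold change of the 85 genes was 0.035 with quantile scaling and 0.0228 with equal totals and ran from -0.0355 to 0.0281 when 1 library was left out, within the spread between libraries. Of the values of 39 named genes under these alternatives, 794 kept their side of the threshold, 9 passed it and 16 lost it. With 3 libraries a genotype, the 95% intervals of the ribosomal protein genes that were not called set how large a change could have been missed.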
